A study of Mus musculus with 38 samples.

Results

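The genes of the proteasome were examined in pairs of Arc-reporter positive and negative cells of the mouse dentate gyrus. Members were the genes whose symbol starts with Psma, Psmb, Psmc, Psmd, Psme, Psmf or Psmg followed by a digit, which gave 49 of the 23420 genes counted. They comprise 19 genes of the core particle (*Psma*, *Psmb*), 21 of the regulatory cap (*Psmc*, *Psmd*), 4 activators (*Psme*) and 5 assembly or accessory factors (*Psmf*, *Psmg*). The symbol rule also takes in *Psmc3ip*, which encodes a meiotic recombination factor and is no proteasome subunit, so the cap count holds 20 genes without it. The name 26S subunits is used here for the 31 constitutive subunits of the complete particle, *Psma1* to *Psma7*, *Psmb1* to *Psmb7*, the 6 cap ATPases and the 11 other cap subunits among the members.

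The proteasome is the large protease that breaks down proteins carrying chains of ubiquitin. Its core particle is a barrel of stacked rings, in which alpha subunits form the outer rings and gate the entrance, and beta subunits form the inner rings, some of them catalytic. The cap binds ubiquitin chains, removes them, unfolds the substrate with a ring of ATPases and feeds it into the core. Activators can take the place of the cap, and dedicated chaperones help to build the core and the base of the cap. In neurons, protein breakdown by the proteasome takes part in synaptic plasticity and in the lasting storage of memory.

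All mice were adult males of the *Arc*::dVenus line on a C57BL/6J background, aged 8 to 12 weeks, in which the *Arc* promoter drives a short-lived form of the fluorescent protein Venus. Fear conditioned mice (FC, n = 12) received tones paired with foot shocks, mice of the no shock group (NS, n = 4) went through the same session without the shock, and home cage mice (HC, n = 3) were not exposed. FC and NS mice were sampled 24 h after training, and from each mouse 10 dVenus+ and 10 neighbouring dVenus- cells of the granule cell layer were aspirated for 1 library each, 38 in all. The comparison made throughout is dVenus+ against dVenus- within the same mouse. It asks whether cells with the *Arc* reporter signal when sampled differ from their neighbours. The comparison of that difference between groups asks whether it depends on training. A dVenus+ cell is marked by its reporter alone, so the HC dVenus+ cells are cells with *Arc* activity that no training evoked. With 10 cells a library, less RNA per cell and fewer cells of a type cannot be told apart.

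Between 1352288 and 18394761 reads were counted on genes per library (median 8013005). *Arc* itself, the gene that drives the reporter, was higher in dVenus+ libraries of all 19 mice, but 3 dVenus- libraries of FC mice (06, 07 and 14) held 1276, 1095 and 2549 reads of it, whereas the other dVenus- libraries held at most 51. The dVenus+ library of FC mouse 03 was the shallowest. By the study's methods the FC mice came from 3 separate experiments, which correspond to 3 sets of 2, 4 and 6 mice whose sample numbers start alike. The 7 unshocked animals shared another such start, so that training group and sample set cannot be told apart where groups are compared. Markers of microglia were not absent: their summed level in dVenus+ cells exceeded that of the paired dVenus- cells in 12 of 12 FC, 4 of 4 NS and 2 of 3 HC mice, and these values are set beside the proteasome results further on.

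The constitutive proteasome was measured in nearly every library, with at least 10 reads in 34 or more of the 38 libraries for each of the 31 26S subunits. Per kilobase of annotated exon, the median level over the 38 libraries was highest for *Psmc5*, a cap ATPase, at 193 normalized CPM (reads on a gene scaled to the TMM-adjusted size of the library), followed by the catalytic *Psmb5* at 145 and *Psmb6* at 121 and the structural *Psmb2* at 120. On this scale per length the 31 26S subunits took the 31 highest places, down to 17.8 normalized CPM per kilobase for *Psmc2*. The other 18 members all lay below them, from 11.5 for the core chaperone *Psmg4* downwards. By class the medians per kilobase were 53.3 for the core, 28.3 for the cap, 8.24 for the activators and 3.62 for the assembly factors. The precision differed with the level: in the FC fit the standard errors of the log2 fold changes ran from 0.32 to 0.60 for the 26S subunits and from 0.58 to 1.02 for the other members tested.

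Of the tissue-restricted forms of the core some were at or near 0 and others were detected at low levels. *Psma8*, the alpha subunit of the testis, had no read in any of the 38 libraries, which allows up to 3 counts, or between 0.163 and 2.22 CPM depending on the library. Of the immunoproteasome, the form of the core that serves antigen presentation, *Psmb9* had reads in 2 libraries and *Psmb8* in 10. The highest *Psmb8* level, 92.2 normalized CPM, was in the dVenus+ library of FC mouse 04, and both *Psmb9* libraries were of FC mice. *Psmb10*, the third catalytic subunit of that form, had reads in 31 libraries, at a median of 5.10 normalized CPM per kilobase. *Psmb11*, known as the catalytic subunit of the thymus, had reads in all 38, at a median of 2.42 normalized CPM per kilobase. It lies next to *Psmb5* on chromosome 14 (*Psmb11* at 54621433 to 54629556, *Psmb5* at 54614119 to 54618022 in GRCm38), on the other strand. *Psmc3ip* had reads in 10 libraries, at most 35.1 normalized CPM.

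In FC mice 10 of the 31 26S subunits were called higher in dVenus+ than in dVenus- cells and none lower. Of the 45 members tested in FC, 10 were called higher and 0 lower (edgeR's quasi-likelihood test, Benjamini-Hochberg adjusted p under 0.05), whereas 1.5% of the 9709 genes tested were called higher and 2.86% lower, 4.37% in all. All 10 also passed an absolute log2 fold change over 1, as did 4.35% of the genes tested. The 10 called genes were 8 of the 20 cap genes tested and 2 of the 16 core genes, and all of them were 26S subunits. All 31 26S subunits had a log2 fold change above 0, with a median of 1.32. Of all genes tested 45.9% lay above 0, with a median of -0.11. The 14 other members tested had 6 values above 0, a median of -0.10 and no call. At an unadjusted p under 0.05, 25 members were higher and 0 lower, where 6.49% of all genes tested were higher and 11.3% lower.

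**Figure D1:**
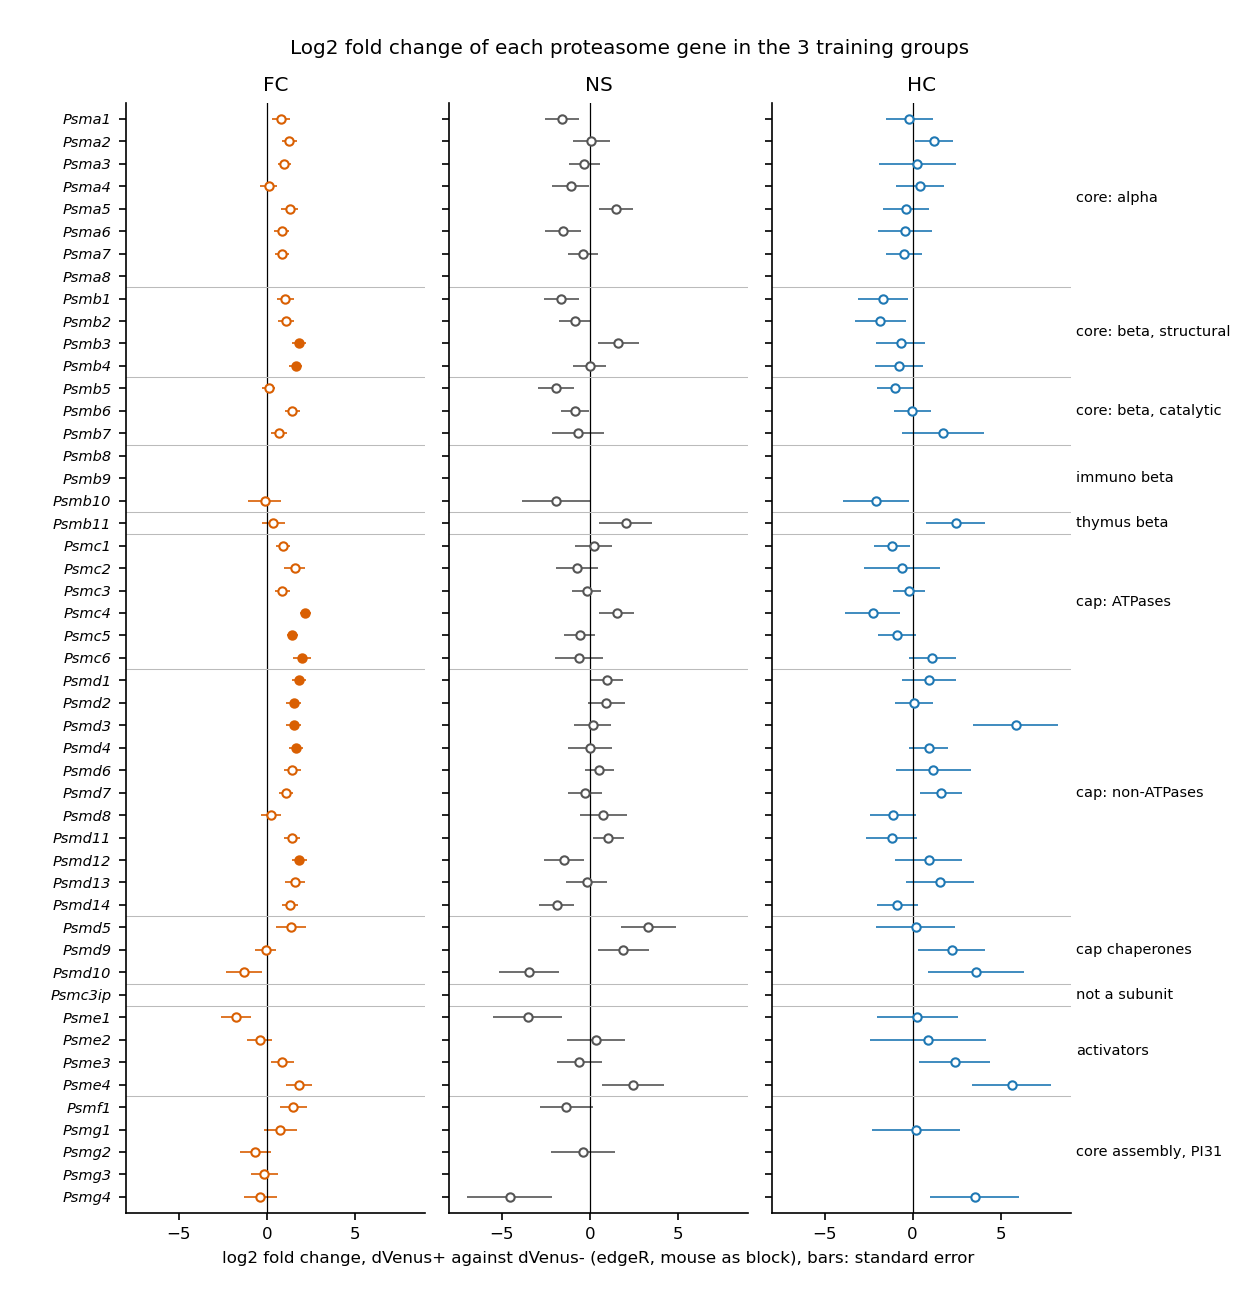
Log2 fold change of dVenus+ against dVenus- for each proteasome gene (rows, grouped by role) in FC, NS and HC mice, from edgeR with the mouse as block; bars are standard errors, filled points have an adjusted p under 0.05, and genes below the count filter have no point. In FC the core and cap subunits lie to the right of 0 and 10 points are filled, while in NS and HC the bars are wider, values fall on both sides of 0 and no point is filled.

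The largest fold change and the smallest p-value among the members belonged to *Psmc4*, an ATPase of the ring that unfolds substrates (chromosome 7, 28041707 to 28050101, minus strand, GRCm38). Its level ran from 203 to 1010 normalized CPM in the 12 FC dVenus+ libraries (median 382) and from 41.2 to 252 in the dVenus- libraries (median 93.1). The groups overlapped by the highest dVenus- library alone, that of mouse 05, and within mice the dVenus+ library was the higher one in 12 of 12. The log2 fold change was 2.20 (SE 0.32, adjusted p = 0.000118, edgeR), a fold of 4.58. *Psmc5* and *Psmc6*, ATPases of the same ring, were also called. *Psmc5* ran from 232 to 2053 (median 404) against 50.05 to 421 normalized CPM (median 173), higher in 10 of 12 mice, with a log2 fold change of 1.46 (SE 0.34, edgeR adjusted p = 0.0103). *Psmc6* ran from 37.2 to 352 (median 171) against 0.93 to 157 (median 62.6), higher in 11 of 12 mice, with a log2 fold change of 2.00 (SE 0.53, edgeR adjusted p = 0.0273). Its call was lost when mouse 01, 03, 04, 12 or 14 was left out, with edgeR adjusted p values of 0.0517 to 0.0591. The remaining ATPases *Psmc1*, *Psmc2* and *Psmc3* had log2 fold changes of 0.92, 1.60 and 0.89 that were not called.

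Among the non-ATPase subunits of the cap, 5 of 11 were called, and all 11 had values above 0. *Psmd1* and *Psmd2* encode the large scaffold subunits of the base, to which ubiquitin receptors and shuttle proteins dock. *Psmd1* ran from 72.1 to 725 normalized CPM in dVenus+ (median 319) against 22.9 to 251 in dVenus- cells (median 108), with a log2 fold change of 1.85 (SE 0.40, edgeR adjusted p = 0.0066). *Psmd2* ran from 204 to 774 (median 364) against 9.53 to 473 (median 149), with 1.54 (SE 0.43, edgeR adjusted p = 0.0363). Both were higher in dVenus+ cells of 11 of 12 mice, and for both the ranges of the libraries overlapped. *Psmd4*, a ubiquitin receptor of the cap, ran from 188 to 605 (median 307) against 16.5 to 405 (median 111), with 1.65 (SE 0.39, edgeR adjusted p = 0.0120) and 11 of 12 mice higher. *Psmd3* and *Psmd12* belong to the lid, the part of the cap that holds the deubiquitinase. *Psmd12* ran from 47.9 to 773 (median 179) against 8.46 to 135 (median 51.1), with 1.86 (SE 0.43, edgeR adjusted p = 0.0119), and *Psmd3* from 71.7 to 457 (median 216) against 2.14 to 194 (median 89.3), with 1.54 (SE 0.42, edgeR adjusted p = 0.0344). Leaving out single mice ended the call of *Psmd2* for mice 01, 06, 07, 12, 13 and 14 (edgeR adjusted p 0.0592 to 0.0760) and that of *Psmd3* for mice 01, 04, 06, 07, 10, 12, 13 and 14 (0.0524 to 0.0898). *Psmd14*, the deubiquitinase itself, was higher in 9 of 12 mice and had a log2 fold change of 1.32 (SE 0.43), which was not called (edgeR adjusted p = 0.0738). The smallest value of the lid and base subunits was that of *Psmd8*, 0.23 (SE 0.58).

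In the core, 2 structural beta subunits were called. *Psmb3* ran from 104 to 427 normalized CPM in dVenus+ (median 230) against 7.37 to 215 in dVenus- cells (median 83.3), higher in 11 of 12 mice, with a log2 fold change of 1.84 (SE 0.40, edgeR adjusted p = 0.00768). *Psmb4* ran from 109 to 758 (median 248) against 9.76 to 223 (median 93.7), higher in 12 of 12 mice, with 1.64 (SE 0.37, edgeR adjusted p = 0.00883). The dVenus+ and dVenus- libraries overlapped for both, although no mouse went the other way for *Psmb4*. The other structural subunits *Psmb1* and *Psmb2* had 1.06 and 1.10, not called.

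The catalytic subunits were not called. *Psmb6*, the subunit with caspase-like activity, ran from 199 to 678 normalized CPM in dVenus+ (median 271) against 1.52 to 275 in dVenus- cells (median 113), with a log2 fold change of 1.46 (SE 0.44, edgeR adjusted p = 0.0529) and 11 of 12 mice higher. It was called with DESeq2's size factors in edgeR (adjusted p = 0.0408), without mouse 06 (0.0464) and with DESeq2's Wald test (0.00877). *Psmb7*, with trypsin-like activity, had 0.68 (SE 0.45) and 9 of 12 mice higher. *Psmb5*, with chymotrypsin-like activity, had 0.10 (SE 0.38) and 8 of 12 mice higher, from 26.5 to 349 (median 133) against 53.1 to 227 normalized CPM (median 115). The *Psmb5* estimate thus stood within its standard error of 0, while those of the other catalytic subunits *Psmb6* and *Psmb7* lay over 1 standard error above 0. The difference between the subunits was not tested. Of the immunoproteasome, only *Psmb10* passed the count filter, with -0.13 (SE 0.92). *Psmb11* had 0.37 (SE 0.67). All 7 alpha subunits tested were above 0, from 0.10 for *Psma4* to 1.30 for *Psma5*, and none was called.

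**Figure D2:**
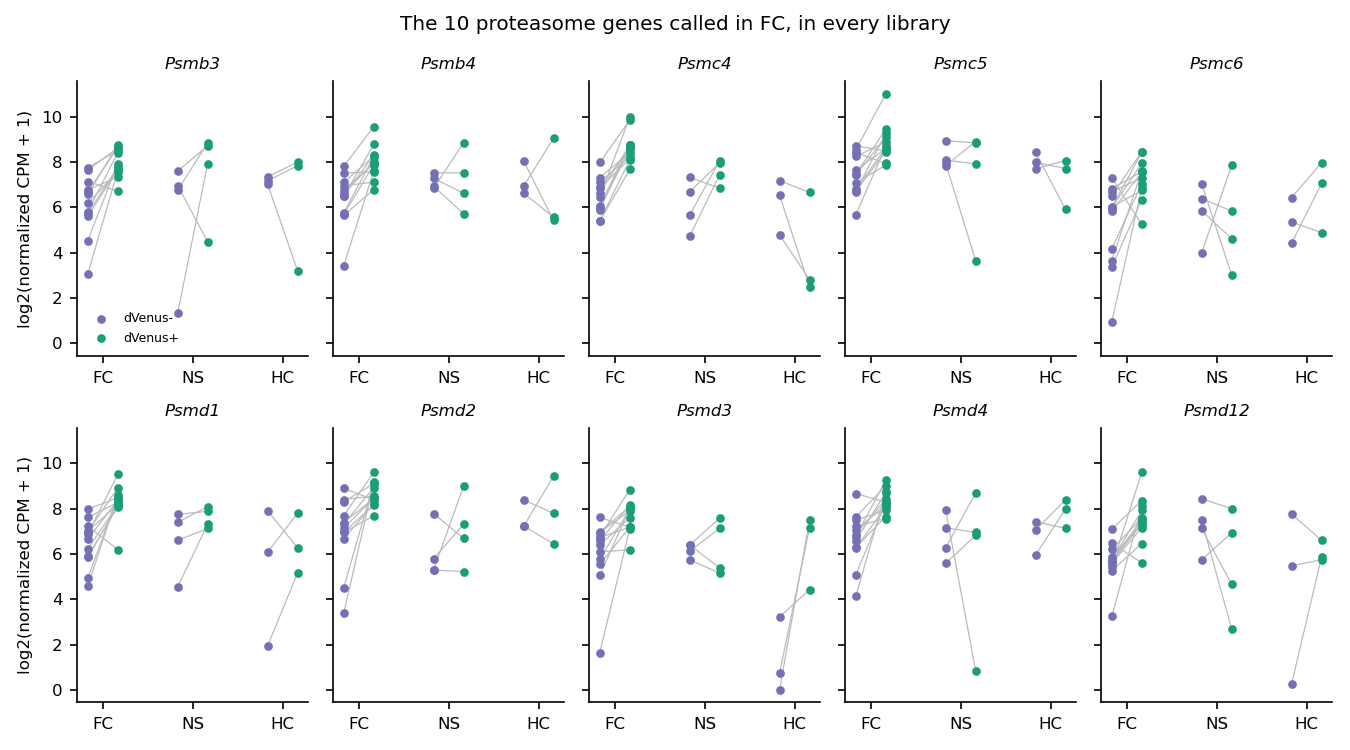
Level of the 10 proteasome genes called in FC in every library, as log2(normalized CPM + 1), with the dVenus- (purple) and dVenus+ (green) library of a mouse joined by a line. In FC nearly all lines rise, in 12 of 12 mice for *Psmb4* and *Psmc4*, whereas in NS and HC lines rise and fall, and for *Psmc4* the 3 HC lines fall.

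In FC 2 of the 4 activators had a log2 fold change above 0 and 2 below it. *Psme1* and *Psme2* encode the 2 kinds of subunit of the PA28 ring, which opens the core in cells exposed to interferon, and lie close together on chromosome 14. *Psme1* was lower in dVenus+ cells of 9 of 12 mice, from 0 to 58.6 (median 3.99) against 0.305 to 54.9 normalized CPM (median 27.3), with a log2 fold change of -1.74 (SE 0.85, edgeR adjusted p = 0.282). DESeq2's Wald test, which called 23 members and 17.1% of all genes in FC, called *Psme1* lower, with a log2 fold change of -2.85, and *Psme4* higher, with 1.85. *Psme2* had -0.40 (SE 0.70). *Psme3*, the nuclear activator PA28 gamma, had 0.89 (SE 0.66). *Psme4*, the single-chain activator PA200, had the highest value of the class, 1.84 (SE 0.72, edgeR adjusted p = 0.156), from 1.49 to 229 (median 61.0) against 0.369 to 67.7 normalized CPM (median 17.7), and was higher in 10 of 12 mice. It was also called by edgeR without the mouse as block (adjusted p = 0.0375).

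The factors that help to build the particle had values on both sides of 0. The chaperones *Psmg1*, *Psmg2*, *Psmg3* and *Psmg4*, which help to build the core, had log2 fold changes of 0.77, -0.64, -0.15 and -0.37, with standard errors between 0.76 and 0.95. *Psmf1*, which encodes the inhibitor and adaptor PI31, had 1.503 (SE 0.77, edgeR adjusted p = 0.308). Of the cap chaperones, which help to assemble the ATPase ring, *Psmd5* had 1.38 (SE 0.88), *Psmd9* -0.06 (SE 0.58) and *Psmd10* -1.29 (SE 1.02). None of these 8 factors was called. Their levels were low: the summed level of *Psmf1* and the 4 *Psmg* genes was 101 ± 53.7 normalized CPM in FC dVenus+ and 67.3 ± 45.7 in dVenus- libraries (SD, n = 12), and libraries without a single read occurred for each of the 4 *Psmg* genes in FC dVenus+ cells.

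Summed over the 31 26S subunits, the level averaged 8049 ± 2224 normalized CPM in FC dVenus+ and 3586 ± 1327 in FC dVenus- libraries (SD, n = 12), with the dVenus+ library higher in 12 of 12 mice. In NS mice the sums were 5005 ± 2894 and 4914 ± 1472 (SD, n = 4, 2 of 4 mice higher), and in HC mice 4740 ± 2496 and 4474 ± 334 (SD, n = 3, 1 of 3 higher). The mean of the FC dVenus- libraries was thus the lowest of the 6 groups and that of the FC dVenus+ libraries the highest. The dVenus- level of FC mice comes from other sample sets than those of NS and HC mice, so training group and sample set cannot be told apart in these levels. As a percentage of reads on genes, without TMM, the 49 members took the larger share on the dVenus+ side in 9 FC mice. The share was smaller there in mice 04 (0.491 against 0.516%), 05 (0.360 against 0.726%) and 07 (0.487 against 0.758%). In these mice the direction of the sums thus depended on the TMM scaling.

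**Figure D3:**
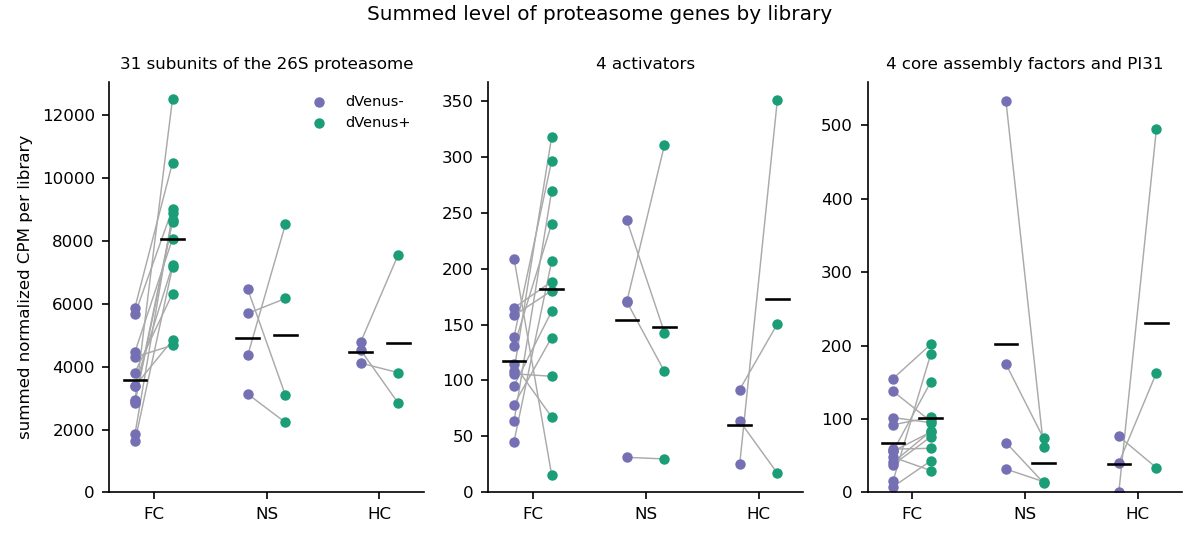
Summed normalized CPM of the 26S subunits, the activators and the 5 genes *Psmf1* and *Psmg1* to *Psmg4* in every library, with the 2 libraries of a mouse joined by a line and black bars at the group means; the y axes differ between panels. The 26S sums rise from dVenus- to dVenus+ in all 12 FC mice and in both directions in NS and HC, and the sums of the other 2 panels cross in every group except the 5 factors in NS, which fall in 4 of 4 mice.

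The size of the difference varied between FC mice and between experiments. Over the 26S subunits, the median within-mouse difference in log2(normalized CPM + 1) was above 0 in 11 of 12 mice, from -0.03 in mouse 04 to 3.07 in mouse 12. In the latter, 30 of the 31 subunits were higher in the dVenus+ library. By experiment, the median of these values was 1.89 in that of 2 mice (01 and 03), 0.42 in that of 4 mice (04 to 07, from -0.03 to 0.66) and 1.47 in that of 6 mice (09 to 14, from 1.01 to 3.07). The range of the experiment with 4 mice did not overlap with those of the others. Set against the median of all genes in the same mouse, from -1.06 to 0.16, the experiments overlapped. The difference between experiments was not tested. Refitted on these 4 mice alone, edgeR called 0 members, beside 0.13% of all genes, with 16 of 31 subunits above 0 and a median over all members tested of -0.16, against -0.33 over all genes. On the experiment with 6 mice alone it called 1, *Psmd13*, with 31 of 31 subunits above 0 and a median over the members tested of 1.47, against -0.03 over all genes, and 0.145% of all genes were called.

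**Figure D4:**
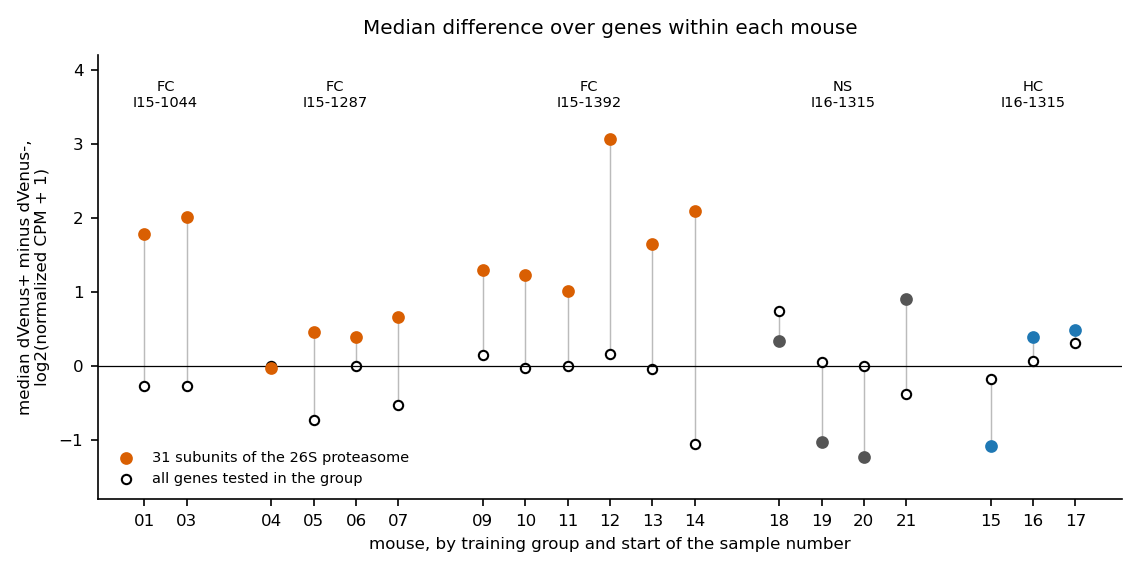
Median over genes of the dVenus+ minus dVenus- difference in log2(normalized CPM + 1) in each mouse, for the 31 26S subunits (filled) and for all genes tested in the group (open), ordered by group and by the start of the sample number. The filled point lies above the open one in 11 of 12 FC mice, with the lowest filled points of FC in mice 04 to 07, and on both sides of it in NS and HC.

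Within FC the subunits also varied together. Across the 12 within-mouse differences, Pearson's r had a median of 0.32 over the 465 pairs of 26S subunits, with 84.3% of the pairs above 0, and of 0.29 over the 320 pairs of 1 core and 1 cap gene. Pairs of any 2 genes tested had a median of 0.04. Pairs of a 26S subunit with an activator or assembly factor had a median of 0.14. The 6 pairs of activators had a median of 0.34, with 100% above 0. The 10 pairs of assembly factors had a median of 0.14, with 70% above 0. Variation together was thus not particular to the 26S subunits. The values share the same 24 libraries and their depth and normalization, and are given as a description.

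**Figure D5:**
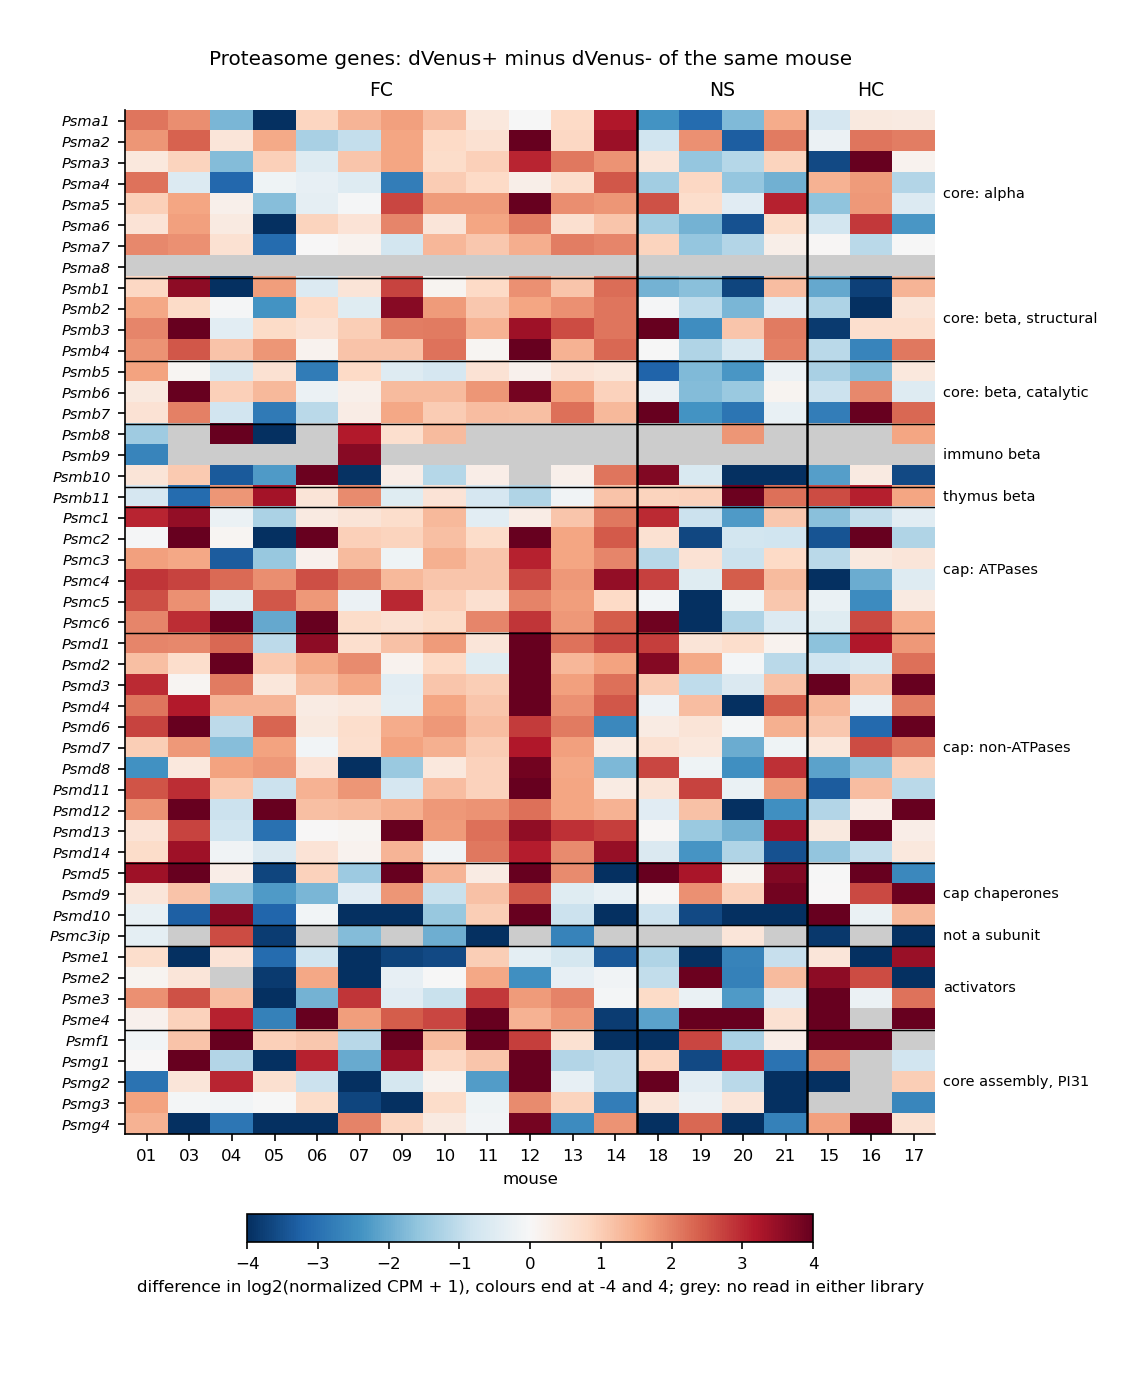
Difference in log2(normalized CPM + 1) between the dVenus+ and dVenus- library of each mouse (columns) for the 49 proteasome genes (rows, grouped by role), red where dVenus+ is higher and blue where it is lower, with colours ending at -4 and 4. Red fills most of the core and cap rows in FC, with many of the darkest cells in mouse 12 and both colours in mice 04 and 05, and the activator and assembly rows are mixed in all groups.

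In NS mice no member was called by edgeR, where 0.0489% of the 8187 genes tested were (0.0366% higher and 0.0122% lower). DESeq2's Wald test called 3 of the members, *Psmd5* higher and *Psmd10* and *Psmg4* lower, and 8.13% of all genes. Of the 43 members tested 17 were above and 26 below 0, where 52% of all genes were above, and their median log2 fold change was -0.30, against 0.08 over all genes. At an unadjusted p under 0.05, 1 member was higher and 1 lower, against 4.21% and 4.46% of all genes. Both are cap chaperones. The first, *Psmd5*, had 84.2, 8.64, 84.6 and 273 normalized CPM in the dVenus+ libraries of mice 18, 19, 20 and 21 and 0, 0, 78.02 and 20.1 in their dVenus- libraries, with a log2 fold change of 3.34 (SE 1.54, edgeR adjusted p = 0.559). *Psmd10* had 45.1, 1.79, 0 and 0.234 in dVenus+ and 81.3, 32.7, 49.1 and 35.9 in dVenus- libraries, with -3.45 (SE 1.69, edgeR adjusted p = 0.574). Each went the same way in 4 of 4 mice. The 3 catalytic subunits all had values below 0 in NS, -1.92 for *Psmb5*, -0.84 for *Psmb6* and -0.65 for *Psmb7*, none called. *Psmc4*, the top gene of FC, had 173, 114, 267 and 248 normalized CPM in NS dVenus+ libraries and 25.3, 160, 49.4 and 103 in dVenus- libraries, higher in 3 of 4 mice (log2 fold change 1.52, SE 0.99).

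In HC mice no member was called by edgeR either, and 0% of the 7588 genes tested were. At an unadjusted p under 0.05, 2 members were higher and 0 lower, where 3.8% and 3.22% of all genes were, and DESeq2's Wald test called 1 member, *Psmd3*, and 8.24% of all genes. Of 42 members tested, 23 were above and 19 below 0, where 50.4% of all genes were above, with a median of 0.17 against 0.02 over all genes. *Psmd3* had 141, 20.5 and 180 normalized CPM in the dVenus+ libraries of mice 15, 16 and 17, and 0.668, 8.27 and 0 in the dVenus- libraries, with a log2 fold change of 5.85 (SE 2.41, edgeR adjusted p = 0.682). *Psme4* had 272, 0 and 61.2 against 9.58, 0 and 0.0974, with 5.62 (SE 2.23, edgeR adjusted p = 0.677), and mouse 16 had no read of it in either library. The 2 groups of libraries did not overlap for *Psmd3* and overlapped for *Psme4*. *Psmc4* went the other way than in FC, with 4.67, 6.05 and 100 normalized CPM in dVenus+ and 91.9, 26.6 and 144 in dVenus- libraries (log2 fold change -2.28, SE 1.57, edgeR adjusted p = 0.736). The dVenus+ libraries all lay above the dVenus- libraries for 4 members in HC, *Psmb11*, *Psmd3*, *Psmd7* and *Psmd9*, where 15.1% of the genes tested had groups that did not overlap. No member had such groups in FC or NS, where 0.124% and 5.97% of the genes tested did. *Psmf1* had 113, 409 and 0 normalized CPM in HC dVenus+ and no read in the 3 dVenus- libraries, and it was below the count filter.

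Whether the dVenus+ to dVenus- difference itself varied with training was examined by an interaction term fitted to the 38 libraries together. No gene and no member was called, neither between FC and NS nor between FC and HC (0% of 14075 genes in each). At an unadjusted p under 0.05, 8 of the 47 members tested had a larger difference in FC than in NS and 0 a smaller one, where 2.91% and 5.27% of all genes did. The 8 were *Psma1*, *Psma6*, *Psmb1*, *Psmb5*, *Psmb6*, *Psmc5*, *Psmd12* and *Psmd14*. The most extreme was the deubiquitinase *Psmd14*, with an interaction of 3.17 on the log2 scale (SE 0.91, edgeR adjusted p = 0.427). It had 95.4, 20.6, 146 and 17.8 normalized CPM in NS dVenus+ libraries and 142, 110, 338 and 211 in NS dVenus- libraries, lower in dVenus+ cells of 4 of 4 mice. Between FC and HC, 5 members had a larger and 2 a smaller difference at that level, where 3.01% and 6.26% of all genes did. *Psmc4* led with 4.27 (SE 0.94, edgeR adjusted p = 0.289), followed by *Psmc5*, *Psmb2*, *Psmb4* and *Psmd11*, and the smaller ones were *Psmd3* with -4.42 and *Psmf1*. The median interaction over the members was 1.33 against NS and 0.87 against HC, beside -0.43 and -0.58 over all genes. Both contrasts use the same FC libraries. A contrast of FC with the mean of NS and HC, added after values were seen, had no call either, with 8 members larger and 1 smaller (*Psmd9*) at an unadjusted p under 0.05, where 2.83% and 7.08% of all genes were. With DESeq2's Wald test 5 members were called against NS, all larger in FC, beside 8.47% of all genes, and 8 against HC, 6 of them larger, beside 11.2%. Against NS and HC together it called 8 members, beside 11.5%. In every one of these comparisons the training group and the sample set cannot be told apart.

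Windows of 300 bases around the transcription start, from 250 before it to 50 after it, were at hand from RefSeq (GRCm38.p6) for 41 of the 49 members (not *Psma8*, *Psmb1*, *Psmb2*, *Psmb7*, *Psmc3*, *Psmd3*, *Psmd7* and *Psmg2*). They were searched on both strands for TGACNNNGC, the core of the antioxidant response element, through which Nfe2l1 and Nfe2l2 act on proteasome genes. It was found in 6 of 41 members (14.6%), compared with 14.0% of all 27025 genes with a window and 17.3% of the genes tested in FC. The 6 were *Psmb5*, *Psmb6*, *Psmc6*, *Psmd9*, *Psmd12* and *Psme4*, of which *Psmc6* and *Psmd12* were called in FC. Shown are the windows of these called genes, of *Psmb6*, where the match lies 9 bases before the start, and of *Psmc4*, the top gene, which has no match. Sequences run 5′ to 3′ on the strand of the gene, and capitals mark the match or its reverse complement.
Psmc6 (chr14:45329574-45329873, plus strand): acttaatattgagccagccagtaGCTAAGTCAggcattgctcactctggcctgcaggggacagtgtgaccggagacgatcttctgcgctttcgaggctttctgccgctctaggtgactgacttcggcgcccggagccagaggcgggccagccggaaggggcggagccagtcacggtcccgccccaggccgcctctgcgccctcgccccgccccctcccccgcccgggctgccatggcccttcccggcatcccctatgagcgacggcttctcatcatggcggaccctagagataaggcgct
Psmd12 (chr11:107479278-107479577, plus strand): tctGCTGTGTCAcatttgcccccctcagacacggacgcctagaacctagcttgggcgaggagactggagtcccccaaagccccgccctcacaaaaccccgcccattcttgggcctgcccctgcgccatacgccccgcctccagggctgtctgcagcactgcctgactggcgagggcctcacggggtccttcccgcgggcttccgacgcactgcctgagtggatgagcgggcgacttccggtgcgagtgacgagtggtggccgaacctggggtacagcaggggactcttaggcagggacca
Psmb6 (chr11:70525107-70525406, plus strand): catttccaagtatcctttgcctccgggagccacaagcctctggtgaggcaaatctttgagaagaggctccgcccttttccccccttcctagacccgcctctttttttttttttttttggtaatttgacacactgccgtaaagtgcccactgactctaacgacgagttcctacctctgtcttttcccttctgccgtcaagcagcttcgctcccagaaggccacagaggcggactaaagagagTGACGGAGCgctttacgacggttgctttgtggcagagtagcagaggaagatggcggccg
Psmc4 (chr7:28050043-28050342, minus strand): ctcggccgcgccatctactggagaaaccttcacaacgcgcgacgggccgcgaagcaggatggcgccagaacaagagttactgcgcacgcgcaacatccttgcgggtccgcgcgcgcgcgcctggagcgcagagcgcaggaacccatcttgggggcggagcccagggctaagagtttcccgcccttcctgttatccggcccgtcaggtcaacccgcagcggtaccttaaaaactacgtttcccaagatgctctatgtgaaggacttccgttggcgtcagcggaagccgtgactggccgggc
A match of letters is a description of the window and no evidence of binding.

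Partners of the proteasome were followed with a list of 31 further genes: proteins that bind the particle, genes listed for its transcription, ubiquitin shuttles and ubiquitin genes. In FC 30 were tested, of which 3 were called higher and 0 lower, where 1.5% and 2.86% of all genes tested were. *Vcp*, the ATPase that extracts ubiquitinated proteins and hands them on, had a log2 fold change of 1.42 (SE 0.29, edgeR adjusted p = 0.00421), at a median level of 482 normalized CPM in dVenus+ and of 186 in dVenus- cells. *Rad23b*, a shuttle that carries ubiquitinated substrates to the cap, had 1.77 (SE 0.45, edgeR adjusted p = 0.0218), with medians of 75.3 and 36.1. Both were higher in 12 of 12 mice. At an unadjusted p under 0.05 (edgeR), 11 were higher and 0 lower, where 6.49% and 11.3% of all genes tested were. Among the 11 were the proteasome-bound receptor *Adrm1* (1.15) and the proteasome-bound deubiquitinase *Usp14* (1.27). The median over the list was 0.90. The list had no call in NS (27 tested, median 0.15) or HC (28 tested, median -0.10), where 0.0489% and 0% of all genes tested were called. The 4 genes listed for transcription of the proteasome were *Nfe2l1*, *Nfe2l2*, *Ddi2* and *Ngly1*, of which only *Nfe2l1* and *Nfe2l2* encode transcription factors. Of these 4 genes, 3 were tested in FC, with values from -0.05 to 1.16, none called.

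Other cell and RNA markers moved with the comparison too. For the counts of called markers that follow, 1.5% of all genes tested in FC were called higher and 2.86% lower. In FC 9 of 12 microglial markers were tested and 5 were called higher in dVenus+ libraries, with a median log2 fold change of 3.52 and summed levels from 36.1 to 2156 normalized CPM in dVenus+ (median 272) against 1.28 to 785 in dVenus- cells (median 58.1). All 9 microglial markers tested lay above 0, and 7 were higher at an unadjusted p under 0.05 (edgeR), where 6.49% of all genes tested were. Levels differed between the 12 markers: *Tmem119* and *Trem2* were near the floor. They had medians of 0.126 and 0.0413 normalized CPM in dVenus+ and of 0 in dVenus- libraries. Granule cell markers mostly went the other way in FC, where 8 of 9 lay below 0 and 4 were called lower. The remaining 1 had a log2 fold change of 1.08 and was higher at an unadjusted p under 0.05 (edgeR), as were 6.49% of all genes tested. Summed granule cell levels in FC ran from 265 to 1646 (median 742) against 841 to 2711 (median 1425). This sum was lower in dVenus+ cells of all 19 mice of the 3 groups. Of 6 excitatory neuron markers 3 were called lower and the others were below 0 too in FC, and their summed level was lower in dVenus+ cells of 11 of 12 mice, with means of 1380 and 2475 normalized CPM. The summed level of 5 nuclear RNAs was higher in dVenus+ cells of all 19 mice, at medians of 34449 against 15922 normalized CPM in FC. Of these RNAs *Malat1* and *Snhg11* were called higher in FC and *Miat* lower, with log2 fold changes of 1.53, 1.59 and -2.29. The summed level of 7 astrocyte markers was higher in dVenus+ cells of 3 of 12 FC, 2 of 4 NS and 3 of 3 HC mice. Without the 5 FC mice whose dVenus+ libraries had the highest microglial sums (01, 04, 05, 07 and 09), 7 members were called, all higher, beside 1.28% of all genes. The median over the members tested was then 1.35, against -0.14 over all genes, and 30 of 31 26S subunits were above 0. These 5 mice include 3 of the 4 in the experiment with the smallest differences. The microglial sum was higher in dVenus+ cells of 12 of 12 FC mice, so the mice kept in this refit still hold that difference. Without mice 06, 07 and 14, whose dVenus- libraries held *Arc* reads, 7 members were called, all higher, with a median of 1.17, beside 1.57% of all genes. The part of these markers in the proteasome result was not tested.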

How the data were processed

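Per the labels, the authors aspirated 10 cells per library, made cDNA with Smart-seq2, sequenced single reads, aligned them to mm10 with TopHat2 2.0.13, and counted uniquely aligned reads on NCBI transcripts with HTSeq 0.6.0. The deposited values are these raw counts, with no normalization, for 23420 genes. The 5 entries that name no gene were left out of library totals and tests; reads outside genes made up 16.4% to 59.7% of unique reads. Whether counting used strand is not given in the sources used here, so overlapping genes cannot be separated. A deposited joint table of 11802 genes held equal values and served 1 alternative. Libraries were grouped by their titles; 10 NS and HC description entries name another library and were not used.

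Counts were fitted with edgeR 4.0.16 in R 4.3.3 (TMM, glmQLFit with legacy = FALSE, glmQLFTest, two-sided), over every gene that reached 10 counts in 12 (FC), 4 (NS) or 3 (HC) libraries or more, with the mouse as block because both libraries come from 1 animal. As a check, deviations of the 2 libraries of a mouse had median correlations of 0.04 (FC), -0.01 (NS) and 0.02 (HC). Interactions used 1 fit of 38 libraries (10 counts in 3 or more). A gene was called at a Benjamini-Hochberg adjusted p under 0.05. The setting legacy = FALSE follows an earlier analysis; the installed default, the older quasi-likelihood method, calls 137 instead of 424 genes and 7 instead of 10 members in FC. Levels are CPM scaled by TMM over all libraries, differences within mice use log2(normalized CPM + 1), and levels per kilobase use exon lengths of the GRCm38 annotation. The code was tested on simulated data with genes altered by construction. The fits of NS, HC and the interaction of FC with NS recovered few or none of these genes, so that an absence of calls there says little. The FC fit recovered 1.54%, 18.3% and 37.5% of the genes altered by 1, 2 and 3 on the log2 scale. Of its 42 calls, 4 were false. The altered genes were drawn at random from all genes tested, and no mouse effect was simulated. These shares are thus not those of the members, but a member not called in FC may still differ. Some of DESeq2's interaction values change with the processor's BLAS routines, which were fixed for that reason. Alternatives were DESeq2 1.42.0, its size factors, other count filters, no block, the joint table, the share of reads outside genes as a covariate, single experiments, and leaving out mice. The limits on counts of 0 cover counting error only.

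The members and lists were chosen with earlier results of these data known. Named with values are the called members, the 5 largest changes at an unadjusted p under 0.05 in each group, catalytic, tissue-restricted, receptor, deubiquitinase, chaperone, activator and assembly genes whatever their values, and 2 of the 3 called pathway genes. Other members named, such as those with the smallest value of a class, were chosen after their values were seen. The values of 1 called pathway gene are not reported here.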

Additional observations from a re-analysis of the deposited data

Results flagged for a closer look

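Among the 61 groups of 4 NS libraries checked for a library far from the others, 2 were found, while chance gives about 1 in 20. For *Psmb3*, a structural subunit of the core, the NS dVenus- library of mouse 18 had a log2(normalized CPM + 1) of 1.34, with 1.53 normalized CPM against 107 to 194 in the other 3. For *Psmg3*, a core chaperone, the NS dVenus- library of mouse 21 had 4.49 on the same scale, with 21.5 normalized CPM against 0 to 0.18 in the other 3.

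*Psmc4*, the cap ATPase with the largest fold change in FC, was higher in dVenus+ cells of 12 of 12 FC mice and lower in 3 of 3 HC mice, where the mean within-mouse difference in log2(normalized CPM + 1) was -2.18. The interaction had an adjusted p of 0.289 over all genes (edgeR), and the sample set differs with the group.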

How the results depend on the processing

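The 10 calls among proteasome genes in FC are all towards higher levels in dVenus+ cells, and no called gene changed direction under any alternative. DESeq2's Wald test gave 23 calls in FC, 22 of them higher, and called 1659 genes in all (17.1%) against 424. It gave 3 calls in NS and 1 in HC, beside 8.13% and 8.24% of all genes, and for the interactions 5 against NS, 8 against HC and 8 against both together, beside 8.47%, 11.2% and 11.5%. The experiment with 6 mice alone gave 1 call (0.145% of all genes) and that with 4 mice alone 0 calls (0.13%), the latter with a median log2 fold change of -0.16; both hold fewer mice. Without mice 03 and 05 there were 6 calls (2.77% of all genes). That alternative was planned for the shallowest dVenus+ libraries, which holds for mouse 03 by reads on genes, while mouse 09 was shallower than mouse 05. Without mice 04 and 07, a choice made after seeing the data, there were 7 calls (3.55%).

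Leaving out 1 mouse gave 7 to 14 calls in FC, beside 3.03% to 4.14% of all genes, and medians of 0.98 to 1.22. *Psmc6* was called in 7, *Psmd2* in 6 and *Psmd3* in 4 of these 12 fits, the other 7 genes in all 12. It gave 0 calls in NS and HC, with medians of -0.67 to -0.01 and of -0.17 to 0.40, and 0 for the interactions. Without the mouse as block (no replicate block), 14 members were called in FC, the 10 and *Psma2*, *Psmd13*, *Psmd14* and *Psme4*, with a median of 1.00, beside 5.05% of all genes, and 0 in NS, HC and the interactions. The other settings in FC gave 7 to 11 calls. The older quasi-likelihood method gave 7 and called 137 genes in all.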
